A study of Gallus gallus with 9 samples.

Results

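The genes described are those of the smooth muscle and contractile apparatus in the chick embryo (Gallus gallus), a list of 10 given by name: ACTA2, TAGLN, ACTG2, MYH11, MYL9, CNN1, CALD1, TPM1, ACTN1 and DES. By gene number or RefSeq accession, 8 of the 10 had a row among 14120 genes with one, and all 8 passed the filter on low counts. CNN1 and DES are not analysed here. RNA was sequenced from 3 tissues with 3 libraries each. These were periocular neural crest of embryonic day 3 (E3), the corneal endothelium of E5 embryos, and endothelium plus keratocytes from E7 corneas. The labels name no strain, genotype, treatment or transgene, and none tells if libraries of 1 tissue are separate dissections or embryos. The p-values therefore rest on the spread among these libraries alone, part of which could be technical.

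Smooth muscle contracts when myosin slides along filaments of actin. The smooth muscle actins (ACTA2 in vessel walls, ACTG2 in the gut) form the filament, the heavy chain MYH11 and the regulatory light chain MYL9 belong to the motor, and tropomyosin (TPM1), caldesmon (CALD1) and transgelin (TAGLN) lie along or bind the filament. Alpha-actinin 1 (ACTN1) crosslinks filaments and anchors them at adhesions. ACTA2 and TAGLN are also made by fibroblasts that become contractile myofibroblasts, while MYH11 is characteristic of differentiated smooth muscle. MYL9, TPM1, CALD1 and ACTN1 have forms that work in the cytoskeleton of many cells that are not muscle. Periocular crest cells are known to give rise to corneal endothelium, to the keratocytes of the stroma and to perivascular cells of the eye.

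Not every library lay with its own stage. Across genes, which are not independent replicates, log2(CPM + 1) values correlated at 0.987 to 0.989 among the E3 libraries. CPM is the count scaled to library size, and for all correlations it was also scaled by TMM normalisation factors. The E7 library with number 3 resembled E5 libraries 1 and 2 (r = 0.985 and 0.981) more than its own group (0.926 and 0.937). The E5 library with number 3 resembled E7 libraries 1 and 2 (0.975 and 0.981) more than its own group (0.941 and 0.948). The corneal libraries thus formed 2 clusters that cut across the labels: cluster 1 held E5 libraries 1 and 2 with E7 library 3, and cluster 2 held E5 library 3 with E7 libraries 1 and 2. Whether the labels of E5 library 3 and E7 library 3 were exchanged was not tested, and if so the E5 and E7 values given by label would change. The labels were kept, and each comparison of the 8 genes is also given without both libraries. Both were picked for going against their labels, with the values known. Where those fits give a smaller SE or p-value, this follows in part from that choice. Library totals ran from 9874339 to 23205388 expected counts. Of 12 marker genes of corneal endothelium and keratocytes, 11 were called higher in the corneal libraries than at E3. Among 8 neural crest markers, 2 were called higher and 4 lower. Over all genes tested, 20.9% were called higher and 20.8% lower in that comparison. The water channel AQP1, a corneal endothelial marker, lay between 0.48 and 1.2 FPKM at E3. It lay between 1080 and 1085 FPKM in cluster 1 and between 524 and 547 FPKM in cluster 2. SLC4A11, the 1 corneal marker not called and named after its values were seen, lay lower in the cornea. Its range was 1.04 to 1.18 FPKM at E3 and 0.62 to 0.87 FPKM in the corneal libraries. FPKM is the authors' value of fragments per kilobase of transcript scaled to library depth, summed here over the entries of a gene.

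Levels differed widely among the 8 genes on this length-corrected scale. TPM1 had the highest FPKM of the 8 in each of the 9 libraries, and ranked between place 92 and place 183 among all 14120 genes. At E3 it was followed by CALD1 at 80.7 to 94.4 FPKM, then by ACTA2 and MYL9, whose ranges overlapped, and ACTN1. TAGLN lay far lower at E3, and MYH11 and ACTG2 stayed at or below 1.61 FPKM in every library. In E5 library 3 and E7 libraries 1 and 2, ACTA2 came second to TPM1, at rank 142 to 148 of all genes, against rank 1292 to 1380 at E3.

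**Figure D1:**
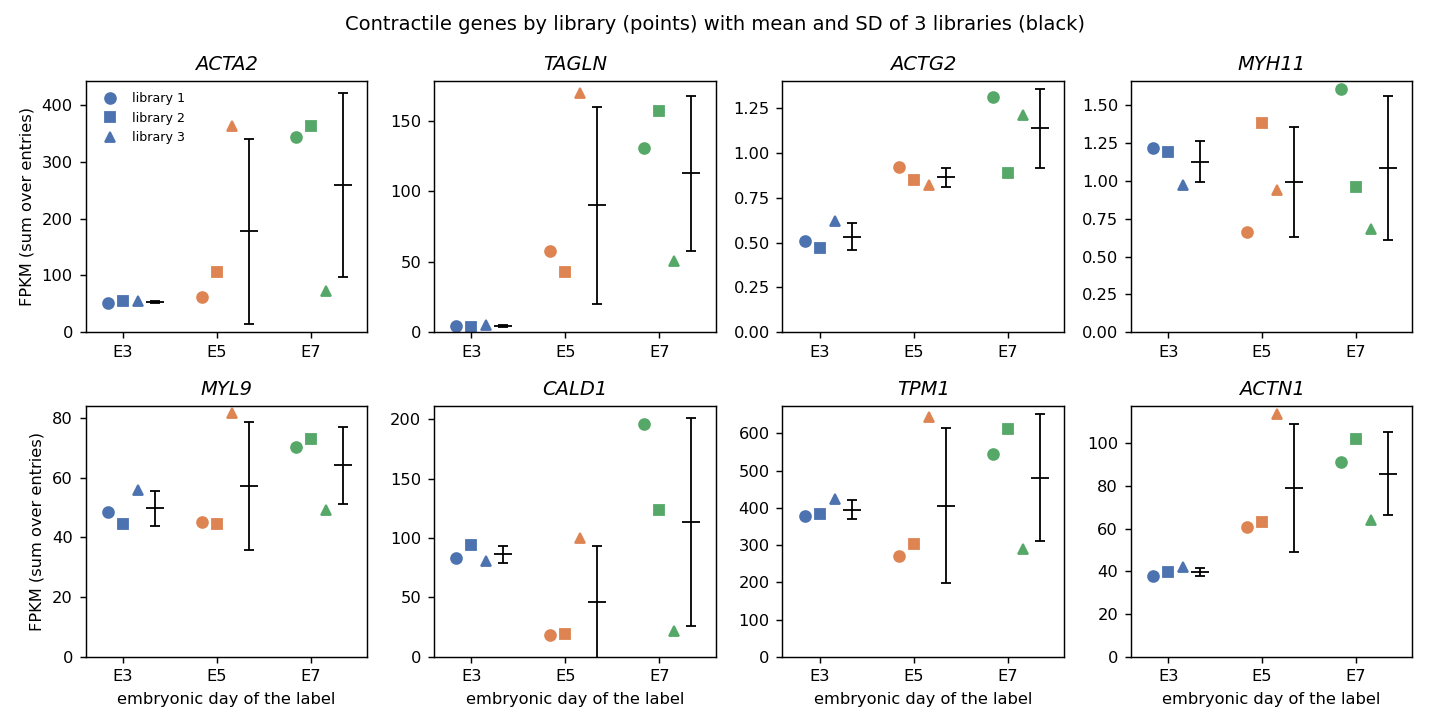
FPKM of the 8 contractile genes (vertical axes, each from 0) in each library, grouped by the embryonic day of the label, with library 1 as a circle, 2 as a square and 3 as a triangle. Black bars give the mean and SD of 3 libraries, cut at 0 for CALD1 at E5. For ACTA2, E5 library 3 and E7 libraries 1 and 2 lie between 345 and 364 FPKM and the other 3 corneal libraries between 62.6 and 106 FPKM.

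From E3 crest to E5 corneal endothelium, transgelin and alpha-actinin 1 rose, and from E3 to the E7 tissue ACTA2 and ACTG2 rose as well. At E5, 2 of the 8 genes were called higher, where 18.5% of all 11748 genes tested were, at an adjusted p under 0.05 in edgeR's quasi-likelihood F-test. At E7, 4 of 8 were called higher, against 17.3% of all genes. With both corneal groups weighted equally against E3, the same count of 4 of 8 was called higher, against 20.9% of all genes. None of the 8 was called lower in any of these comparisons, nor at an unadjusted p under 0.05, and DESeq2 and limma called none lower either; of all genes, 17.7%, 16.4% and 20.8% were called lower. The median log2 fold change of the 8 was 0.62 at E5, 0.88 at E7 and 0.74 in the joint comparison, against 0.03, 0.04 and 0.03 over all genes. E5 library 3 and E7 library 3 were also left out, a choice made with the values known. The calls were then 3 higher and 1 lower at E5, 6 higher at E7, and 6 higher and 1 lower jointly. The shares of all genes called higher were then 25.6%, 21.6% and 26.2%, and those called lower 24.3%, 20.9% and 25.7%. These comparisons share the E3 libraries. In bulk tissue, fewer cells of a type and less RNA per cell cannot be told apart.

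**Figure D2:**
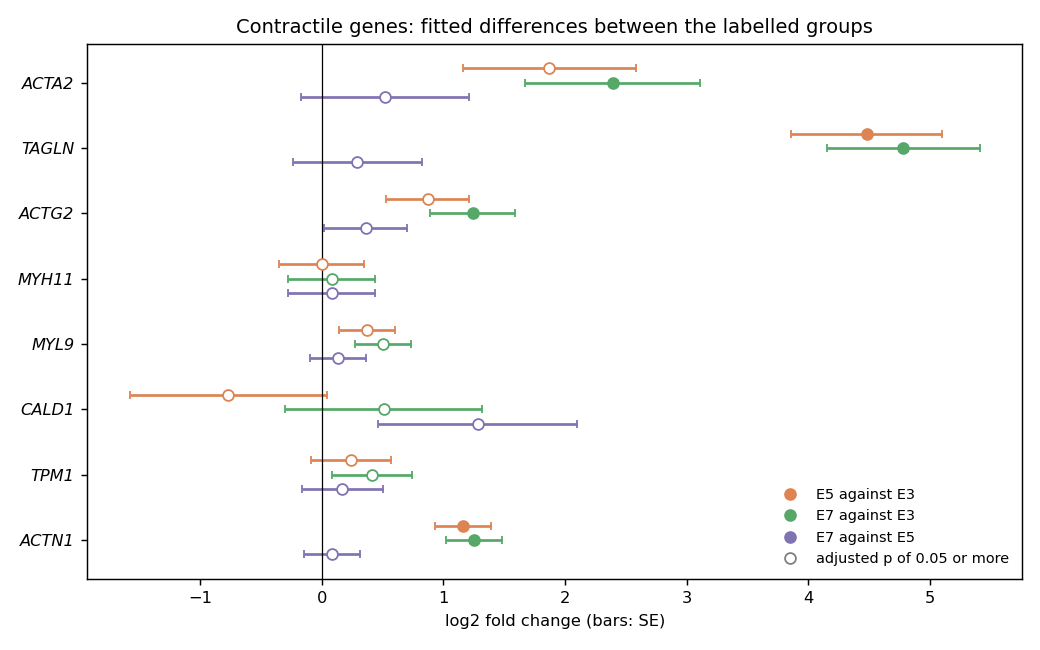
Log2 fold change (horizontal axis, bars are SE) of the 8 contractile genes between the labelled groups, from edgeR on all 9 libraries. Filled points passed an adjusted p of 0.05: TAGLN and ACTN1 in both comparisons with E3, and ACTA2 and ACTG2 at E7. No gene passed for E7 against E5.

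ACTA2 (gene ID 423787), alpha smooth muscle actin, stood at 51.2, 54.5 and 54.6 FPKM in the E3 libraries. The E5 libraries gave 62.6, 106 and 364 FPKM, and the E7 libraries 345, 363 and 72.7 FPKM, each in the order 1 to 3, which holds for all values by library that follow. Every corneal library lay above every E3 library, at 1.17 to 1.99 times the E3 mean in cluster 1 and 6.45 to 6.81 times in cluster 2. At E7 the log2 fold change was 2.39 ± 0.72 (estimate ± SE, n = 3 in each group, adjusted p = 0.035, edgeR), and jointly 2.13 ± 0.66 (adjusted p = 0.0326). Leaving out any 1 of the E3 libraries, or E7 library 1 or 2, ended the E7 call (adjusted p = 0.0863 to 0.105) and the joint call (0.0573 to 0.104). Both calls also ended in limma (0.0688 and 0.067) and with a replicate block (0.0849 and 0.0807). At E5 the value of 1.87 ± 0.71 missed the threshold (adjusted p = 0.0713), and passed it without E5 library 1 (2.27, 0.0483), without E7 library 3 (1.88, 0.0332) and in DESeq2 (0.0282); without E5 library 3 it was 0.87 (0.261). With E5 library 3 and E7 library 3 left out, the log2 fold changes were 0.87 ± 0.19 at E5 (adjusted p = 0.0075) and 2.82 ± 0.19 at E7 (adjusted p = 4.94e-05). That removal was chosen with the values known.

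TAGLN (396490), transgelin, an actin-binding protein abundant in smooth muscle, had the largest difference from E3 of the 8 genes. Its level was 4.17, 3.86 and 5.32 FPKM in the E3 libraries, 57.5, 42.5 and 170 FPKM in the E5 libraries, and 131, 157 and 50.8 FPKM in the E7 libraries. The corneal libraries stood at 9.56 to 38.2 times the E3 mean, with no overlap, and those of cluster 1, where ACTA2 was nearer its E3 level, stood at 9.56 to 12.9 times. The log2 fold change was 4.48 ± 0.62 at E5 (adjusted p = 0.00135) and 4.78 ± 0.63 at E7 (adjusted p = 0.00112). The call held when any one library was left out, at values from 3.70 (without E5 library 3) to 4.82 at E5 and from 4.48 to 5.11 at E7. Without E5 library 3 and E7 library 3 the values were 3.70 ± 0.19 and 5.11 ± 0.20.

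ACTG2 (396084), the enteric smooth muscle actin, was near the limit of measurement. The E3 libraries gave 0.51, 0.47 and 0.62 FPKM, the E5 libraries 0.92, 0.85 and 0.82 FPKM, and the E7 libraries 1.31, 0.89 and 1.21 FPKM. These levels rest on 12 to 28 expected counts per library. All 6 corneal libraries lay above E3, and the 2 corneal clusters overlapped. At E7 it rose, with a log2 fold change of 1.24 ± 0.35 (adjusted p = 0.0267). That call ended when any 1 E3 library or E7 library 1 or 3 was left out (0.0569 to 0.0974), and without E5 library 3 and E7 library 3 together (1.15 ± 0.42, 0.0627). Jointly the gene rose with 1.06 ± 0.31 (adjusted p = 0.0258), and leaving out any 1 E3 library, E5 library 1 or E7 library 1 ended that call (0.0526 to 0.105). A replicate block ended the E7 and the joint call (0.0693 and 0.0633). At E5 the log2 fold change of 0.87 ± 0.34 missed the threshold (adjusted p = 0.0794). Actins are nearly identical in sequence and may share reads. ACTA1, the skeletal muscle actin, stood at 0.99 to 3.47 FPKM in the 9 libraries (mean 1.85 ± 0.796 at E3, n = 3, and 2.93 ± 0.447 in the cornea, n = 6; joint adjusted p = 0.0875), and ACTC1, the cardiac actin, at 0 to 0.17 FPKM. Sharing of reads among actins was not tested.

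MYH11 (396211), the smooth muscle myosin heavy chain, stayed low. The E3 libraries gave 1.22, 1.19 and 0.97 FPKM, the E5 libraries 0.66, 1.38 and 0.94 FPKM, and the E7 libraries 1.61, 0.96 and 0.68 FPKM. The groups overlapped. The log2 fold changes were 0.00 ± 0.35 at E5 (adjusted p = 0.996) and 0.08 ± 0.36 at E7 (adjusted p = 0.884), with 95% intervals of -0.87 to 0.86 and -0.79 to 0.95 on 6 residual degrees of freedom. MYOCD, myocardin, the coactivator that drives the smooth muscle programme, was listed at 0.63 FPKM or less in every library and at 0 in E7 library 1. The defining heavy chain of differentiated smooth muscle was therefore near 1 FPKM in all 3 tissues, while TPM1 and ACTA2 reached 644 and 364 FPKM.

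MYL9 (396215), the regulatory myosin light chain, gave 48.6, 44.7 and 56.0 FPKM in the E3 libraries, 45.4, 44.4 and 81.9 FPKM in the E5 libraries, and 70.3, 73.0 and 49.4 FPKM in the E7 libraries. Cluster 2 lay above the E3 range, and cluster 1 lay at 0.892 to 0.992 times the E3 mean in FPKM and 1.02 to 1.15 times in CPM scaled by TMM factors. Log2 fold changes of 0.37 ± 0.23 at E5 and 0.50 ± 0.23 at E7 did not pass the test (adjusted p = 0.244 and 0.129), although the E7 value passed without E5 library 3 (0.0289). With E5 library 3 and E7 library 3 left out, chosen with the values known, the log2 fold change was 0.06 ± 0.11 at E5 (adjusted p = 0.66). At E7 it was 0.62 ± 0.11 (adjusted p = 0.00323).

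CALD1 (373965), caldesmon, a protein that restrains the actin-myosin interaction, varied most among the corneal libraries. It stood at 83.6, 94.4 and 80.7 FPKM at E3. The E5 libraries gave 18.3, 18.8 and 100 FPKM and the E7 libraries 196, 124 and 21.6 FPKM. All of cluster 1 lay below and all of cluster 2 above the E3 range. The comparisons by label did not pass the test, with log2 fold changes of -0.77 ± 0.81 at E5 (adjusted p = 0.492, interval -2.77 to 1.22) and 0.51 ± 0.81 at E7 (adjusted p = 0.661, interval -1.48 to 2.5). With E5 library 3 and E7 library 3 left out, CALD1 was lower than E3 at E5 (log2 fold change -2.0 ± 0.20, adjusted p = 0.000203) and higher at E7 (0.99 ± 0.18, adjusted p = 0.00409). Those libraries were removed with the values known, so these p-values do not stand as a separate test.

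TPM1 (396366), tropomyosin 1, showed the same order with smaller steps. The E3 libraries gave 378, 383 and 423 FPKM, the E5 libraries 271, 303 and 644 FPKM, and the E7 libraries 544, 611 and 288 FPKM. Again cluster 2 lay above and cluster 1 below the E3 range, on FPKM and on CPM scaled by TMM factors alike. Log2 fold changes were 0.24 ± 0.33 at E5 (adjusted p = 0.614) and 0.41 ± 0.33 at E7 (adjusted p = 0.376). With E5 library 3 and E7 library 3 left out, chosen with the values known, they were -0.21 ± 0.08 (adjusted p = 0.0741) and 0.65 ± 0.08 (adjusted p = 0.000896).

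ACTN1 (373918), alpha-actinin 1, was higher in every corneal library. Its level was 37.9, 39.6 and 41.9 FPKM in the E3 libraries, 60.7, 63.2 and 114 FPKM in the E5 libraries, and 91.5, 102 and 64.1 FPKM in the E7 libraries. The log2 fold change was 1.16 ± 0.23 at E5 (adjusted p = 0.00635) and 1.25 ± 0.23 at E7 (adjusted p = 0.00501), and the calls held when any one library was left out. Without E5 library 3 and E7 library 3 the values were 0.86 ± 0.08 and 1.39 ± 0.08.

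Between the libraries labelled E5 and E7, none of the 8 genes passed the test, and none had an unadjusted p under 0.05. Over all 11748 genes edgeR called 0% in either direction, with 2.37% at an unadjusted p under 0.05, and limma called 0; DESeq2 called 5 higher and 6 lower, none of them among the 8. The log2 fold changes for E7 against E5 ran from 0.08 for MYH11 and ACTN1 to 1.28 ± 0.82 for CALD1, whose 95% interval ran from -0.73 to 3.30. For ACTA2 the interval ran from -1.16 to 2.20. With E5 library 3 and E7 library 3 left out, 6 of the 8 were higher at E7, against 11.3% of 11981 genes: CALD1 by 3.0 ± 0.22 (adjusted p = 0.000246), ACTA2 by 1.96 ± 0.21 (0.00121), TAGLN by 1.41 ± 0.19 (0.00271), TPM1 by 0.86 ± 0.09 (0.00115), MYL9 by 0.56 ± 0.12 (0.0153) and ACTN1 by 0.54 ± 0.08 (0.00503). These calls rest on 2 libraries a group, after the removal of those that went against their labels, which was chosen with the values known. The fit then compares E7 libraries 1 and 2, all from cluster 2, with E5 libraries 1 and 2, all from cluster 1. It therefore shows the split into clusters again, and its p-values are no separate test of a change from E5 to E7.

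Within the cornea, most of the contractile genes were ordered by cluster. In 6 of the 8, namely ACTA2, TAGLN, MYL9, CALD1, TPM1 and ACTN1, every library of cluster 2 lay above every library of cluster 1, and in none was the order the reverse, on both scales. Over all genes tested, 22.8% had the first arrangement and 23.2% the reverse on CPM scaled by TMM factors, and 30.7% and 16.8% on FPKM. Counts by cluster for the other lists are on the scaled CPM, with FPKM counts beside them where they differ. The clusters were read from these libraries, so no test of the 6 corneal libraries by cluster was made. The fit of E7 against E5 without E5 library 3 and E7 library 3 compares parts of the same clusters. Its p-values are thus no separate support for this order. The gap was widest for CALD1, where the lowest FPKM in cluster 2 was 4.65 times the highest in cluster 1, followed by ACTA2 at 3.24 times, TAGLN at 2.27, TPM1 at 1.80, ACTN1 at 1.43 and MYL9 at 1.42. Against E3, 4 of the 8 genes, ACTA2, TAGLN, ACTG2 and ACTN1, were above the E3 range in all 6 corneal libraries, as were 21.7% of all genes on the scaled CPM and 16.2% on FPKM. CALD1 and TPM1 had the E3 libraries between the clusters.

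**Figure D3:**
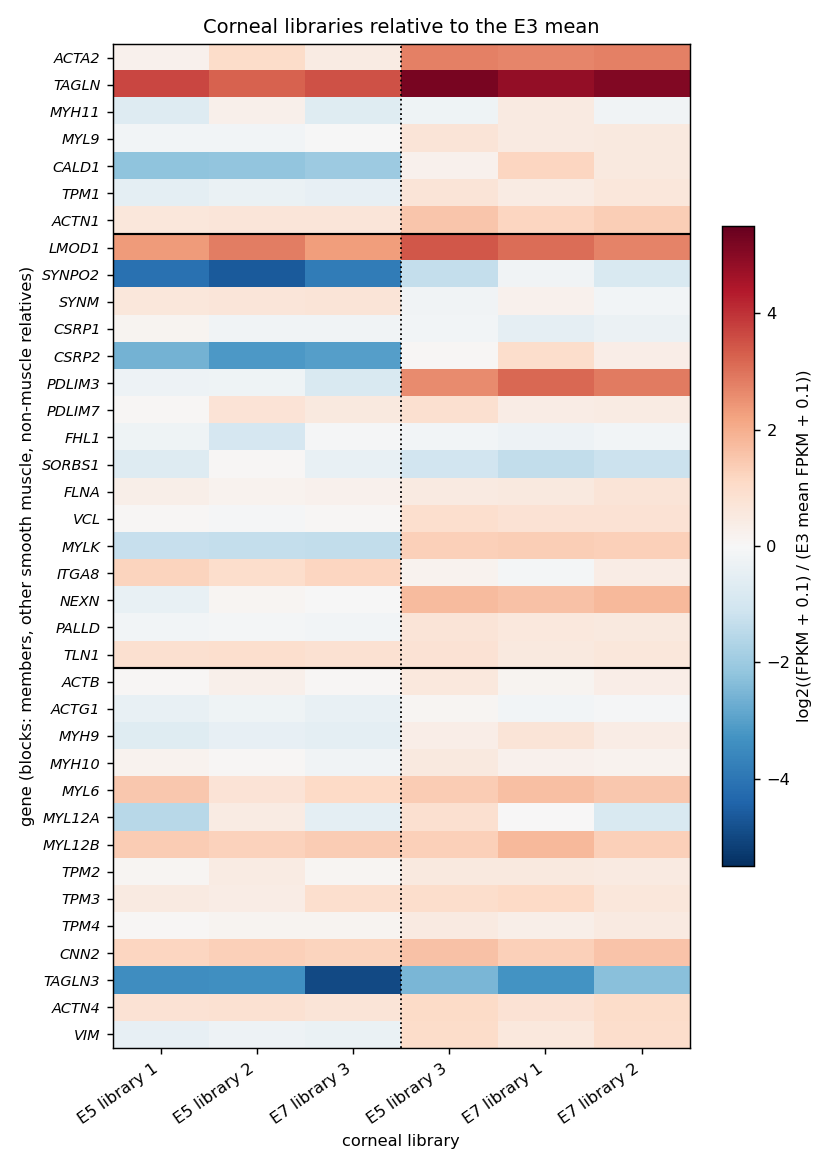
Colour gives log2 of each corneal library's FPKM over the mean of the E3 libraries, with 0.1 added to both. Blocks are contractile members (top), other smooth muscle structural genes (middle) and listed relatives, labelled non-muscle (bottom). Genes shown have a mean of at least 1 FPKM over the 9 libraries. Columns to the right of the dotted line are E5 library 3 and E7 libraries 1 and 2, where ACTA2, CALD1 and TPM1 are redder than to its left, while TAGLN is red in all 6 columns.

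The contractile genes' summed level followed the same split. Their expected counts made up 1191, 1254 and 1275 CPM of the E3 libraries, 918, 1009 and 967 CPM in cluster 1, and 2546, 2612 and 2502 CPM in cluster 2. The sum in cluster 1 was thus below E3 although ACTA2, TAGLN and ACTN1 were above it there. This and the other summed CPM values below are scaled by library size alone. TMM factors were 1.069 to 1.088 at E3 and 0.921 to 0.938 in cluster 1, so scaling by them would narrow that gap. TPM1 alone held 61.6 to 63.8% of the members' summed FPKM at E3 and 39.4 to 52.6% in the corneal libraries. ACTA2 held 8.2 to 8.8% at E3 and 24.7 to 25.3% in cluster 2.

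Single entries of the files gave a view below the gene. Of the 20 entries of the 8 genes, TPM1 had 8, ACTN1 and MYL9 3 each, TAGLN 2 and the others 1. An entry is the authors' estimate for a gene number or a RefSeq transcript, and the division of reads among transcripts of one gene is itself uncertain. In TPM1, 7 of the 8 entries lay higher in all of cluster 2 than in all of cluster 1, and the remaining one, XM_015278793.1, was at 0.84 to 1.57 FPKM throughout. The entries divide the reads of 1 gene, so they are no separate support for its split. The share of all 46855 entries with this order was not computed, and over genes it was 30.7% on FPKM. The entries did not all move alike. XM_015278778.1, with 28.6 to 32.7% of the gene's FPKM at E3 and 33.5 to 41.5% in the corneal libraries, stood at 105 to 112 FPKM in cluster 1, close to its 108 to 129 FPKM at E3. The entry of the gene number gave 90.2 to 119 FPKM in the E3 libraries and 32.1, 62.0 and 45.6 FPKM in cluster 1. XM_015278784.1 stood at 43.3 to 45.6 FPKM at E3, at 16.8, 31.2 and 17.1 FPKM in cluster 1, and at 60.5 to 72.8 FPKM in cluster 2.

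**Figure D4:**
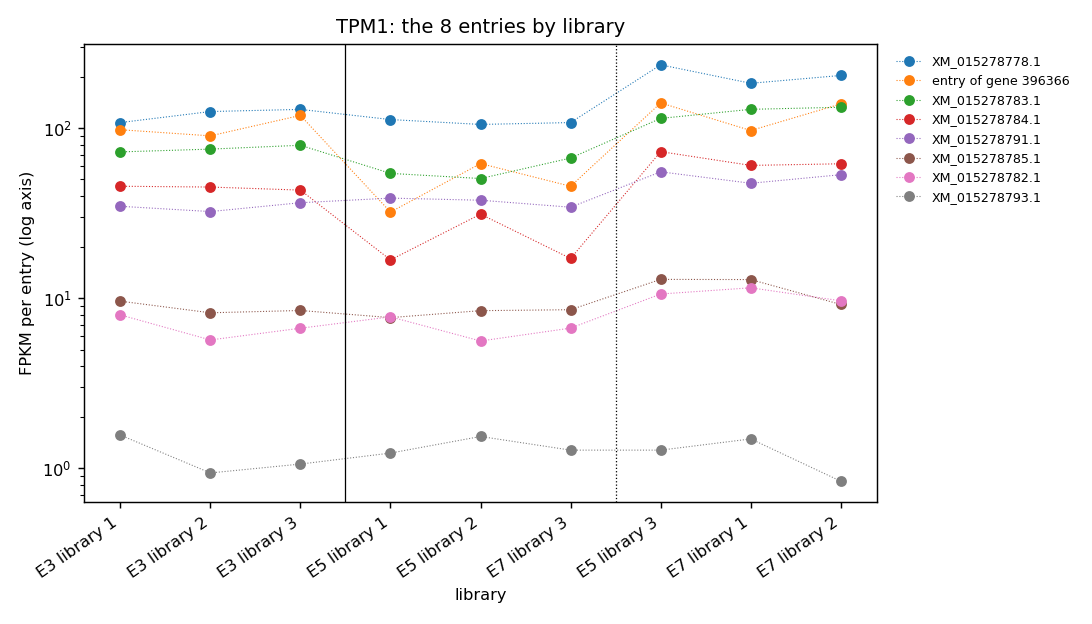
FPKM on a log axis of the 8 TPM1 entries in each library, with E3 left of the solid line and E5 library 3 and E7 libraries 1 and 2 right of the dotted line. Dotted joins only mark the points of one entry. The entry of the gene number and XM_015278784.1 are lowest in the 3 libraries in the middle (cluster 1), where XM_015278778.1 stays between 105 and 112 FPKM.

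Both TAGLN entries, which divide the reads of 1 gene, were higher in every corneal library than at E3. The share of all entries with this order was not computed, and over genes it was 16.2% on FPKM. The entry of gene number 396490 stood at 1.19 to 2.13 FPKM at E3, at 19.4 to 21.7 FPKM in cluster 1 and at 56.2 to 79.5 FPKM in cluster 2. XM_015297970.1 stood at 1.73 to 3.23, 23.0 to 35.9 and 74.5 to 91.8 FPKM in the same order. In ACTN1 the entry of gene number 373918 held 37.5 to 47.1% of the gene's FPKM at E3 and 47.3 to 54.1% in the corneal libraries. These ranges nearly met, at 47.1% in E3 library 2 and 47.3% in E5 library 3, and the E3 libraries differed more among themselves. In MYL9 one entry, XM_015296240.1, held 89.8 to 98.6% of the gene's FPKM in all libraries.

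Of 17 other structural genes of smooth muscle with a row, all tested, 4 were called higher and 0 lower in the corneal libraries jointly against E3, against 20.9% and 20.8% of all genes. The median log2 fold change was 0.58, against 0.03 over all genes. Talin 1 (TLN1), which links integrins to actin, rose from 14.3 ± 1.92 FPKM (mean ± SD, n = 3) to 24.5 ± 2.48 FPKM (n = 6), log2 fold change 0.93 ± 0.12 (adjusted p = 0.000782). Filamin A (FLNA), an actin crosslinker, rose from 77.1 ± 6.56 to 104 ± 14.0 FPKM (0.58 ± 0.10, adjusted p = 0.00213). PDLIM7, a scaffold protein of actin bundles, rose from 10.6 ± 2.43 to 15.4 ± 2.92 FPKM (0.70 ± 0.19, adjusted p = 0.0212), and the call ended without E3 library 2 or 3 (0.0918 and 0.0774) and when scaled by library size alone (0.0605) or in limma (0.0543). Leiomodin 1 (LMOD1), an actin nucleator of smooth muscle named after its values were seen, rose from 0.163 ± 0.050 to 1.79 ± 0.584 FPKM (3.56 ± 0.39, adjusted p = 0.000315). In 8 of the 17 all of cluster 2 lay above all of cluster 1, and in 5 the reverse (8 and 4 on FPKM), against 22.8% and 23.2% of all genes (30.7% and 16.8% on FPKM). One of the 8, also named after its values were seen, was the myosin light chain kinase MYLK, which starts contraction. It stood at 10.9 to 13.6 FPKM at E3, at 4.72 to 5.02 FPKM in cluster 1, and at 30.5 to 31.8 FPKM in cluster 2 (0.62, adjusted p = 0.522 jointly against E3). Among the 5 with the reverse order was TLN1, at 25.7 to 27.3 FPKM in cluster 1 and 21.2 to 25.0 FPKM in cluster 2. Another was ITGA8, named after its values were seen, at 29.4 to 35.2 and 14.1 to 19.9 FPKM.

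Genes that control contraction and the actin-dependent programme gave 4 called higher and 1 lower of 16 with a row in the joint comparison, against 20.9% and 20.8% of all genes, with a median log2 fold change of 0.06. In 5 of the 16 all of cluster 2 lay above cluster 1 and in 5 below it, where FPKM gave 7 and 3, against the same shares of all genes as above. CCN2 (connective tissue growth factor) and CYR61 (also CCN1), matricellular genes that respond to actin tension through YAP and serum response factor, rose. CCN2 stood at 13.6 to 23.0 FPKM at E3, at 75.0 to 85.7 FPKM in cluster 1, and at 209 to 268 FPKM in cluster 2 (3.27 ± 0.55, adjusted p = 0.00233). CYR61 stood at 20.2 to 30.5, 79.9 to 109 and 225 to 318 FPKM in the same order (2.91 ± 0.51, adjusted p = 0.00286). TBX18 and ROCK1, named after their values were seen, were among the 5 with cluster 2 below cluster 1. TBX18 stood at 5.06 to 5.82 FPKM at E3, 5.18 to 5.71 FPKM in cluster 1 and 0.20 to 0.28 FPKM in cluster 2. For ROCK1 the values were 24.2 to 25.9, 23.2 to 24.5 and 19.6 to 20.3 FPKM. TEAD1, the DNA-binding partner of YAP, rose from 8.38 ± 0.552 to 11.2 ± 1.54 FPKM (0.57 ± 0.11, adjusted p = 0.00468), and the call ended when only the entry with the most counts was used (0.181). The small GTPase RHOC, named after its values were seen, rose from 1.76 ± 0.616 to 3.71 ± 0.965 FPKM (1.22 ± 0.35, adjusted p = 0.024), and the call ended without E3 library 2 or 3 (0.102 and 0.0939). YAP1, the coactivator itself, fell from 135 ± 6.54 to 80.1 ± 4.84 FPKM (-0.60 ± 0.06, adjusted p = 0.000156). SRF, the serum response factor that binds the promoters of many contractile genes, gave 39.6 to 43.7 FPKM at E3, against 32.5 to 49.5 FPKM in the corneal libraries (adjusted p = 0.684).

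Relatives of the 10 listed genes, chosen as non-muscle forms, rose more often than they fell. Jointly 8 of 14 were called higher and 1 lower, against 20.9% and 20.8% of all genes. The list does not separate muscle from non-muscle, since TPM2 and MYL6, both called higher, also serve in muscle. The light chains MYL12B (38.6 ± 3.30 to 103 ± 14.3 FPKM, log2 fold change 1.57 ± 0.12, adjusted p = 4.86e-05) and MYL6 (177 ± 27.3 to 451 ± 95.3 FPKM, 1.5 ± 0.20, adjusted p = 0.000759) rose. So did calponin 2, CNN2 (37.9 ± 2.62 to 98.8 ± 12.7 FPKM, 1.53 ± 0.10, adjusted p = 3.06e-05), and alpha-actinin 4, ACTN4 (60.4 ± 6.82 to 111 ± 10.1 FPKM, 1.03 ± 0.09, adjusted p = 0.000112). The 5 not called included the light chain MYL12A and the heavy chains MYH9 and MYH10, named after their values were seen. MYL12A stood at 138 ± 72.8 FPKM at E3 and 133 ± 76.2 FPKM in the cornea (0.07 ± 0.50, adjusted p = 0.93). Sharing of reads between MYL12A and MYL12B was not tested. The 1 called lower was TAGLN3, a neuronal transgelin named after its values were seen, from 3.03 ± 0.735 to 0.265 ± 0.193 FPKM (-3.48 ± 0.65, adjusted p = 0.0038). In 4 of the 14 all of cluster 2 lay above all of cluster 1, and in 0 the reverse. Over all genes the shares were 22.8% and 23.2%. On FPKM the counts were 8 and 0, where the shares were 30.7% and 16.8%. MYL12B, MYL6 and ACTN4 were in neither count, and CNN2 only in that on FPKM.

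Markers of other cells were read beside these results. Of 19 skeletal and cardiac muscle genes with a row, 9 passed the filter. Jointly, 1 of these was called higher and 3 lower, against 20.9% and 20.8% of all genes. The 1 called higher was CHRNA1, named after its values were seen. It stood at 0.053 ± 0.015 FPKM at E3 (n = 3) and 0.790 ± 0.234 FPKM in the cornea (n = 6). Its log2 fold change was 4.06 ± 0.50 (adjusted p = 0.000553, edgeR), on 1 or 2 counts in each E3 library. The 19 genes summed to 91.3 to 112 CPM at E3, 50.3 to 56.4 CPM in cluster 1 and 72.9 to 99.0 CPM in cluster 2. In 5 of the 9 all of cluster 2 lay above all of cluster 1 (6 on FPKM), and in 0 the reverse. Over all genes the shares were 22.8% and 23.2% (30.7% and 16.8% on FPKM). MYOG, a defining factor of skeletal muscle, was at 0.08 FPKM or less in every library, and MYOD1 and MYF6 reached at most 0.32 and 0.40 FPKM. Other genes on the list were not so low. PAX7, which is also a gene of neural crest, stood at 9.37 to 12.72 FPKM at E3, 2.43 to 3.38 FPKM in cluster 1 and 5.68 to 10.76 FPKM in cluster 2. MYF5 stood at 1.59 to 3.02, 0 and 0.21 to 0.29 FPKM in the same order. For MYL4, named after its values were seen, these were 38.5 to 44.8, 31.7 to 33.2 and 38.1 to 44.7 FPKM. MYL4 and PAX7 had the most counts of the 19 in every library, so the sums mainly follow them. Of 6 pericyte and mural cell genes with a row, 5 were tested. KCNJ8, MCAM and ANPEP, 3 of the 5, were called higher and 0 lower, against the same shares of all genes called. The call of KCNJ8 ended without E3 library 2 (adjusted p = 0.0507) or 3 (0.0505). RGS5, a defining pericyte gene, was at 0.08 FPKM or less. The pericyte sum was 43.6 CPM in the E3 libraries, 110.5 to 117 CPM in cluster 1 and 94.9 to 99.2 CPM in cluster 2. MCAM and ANPEP had the most counts of the 6 in every library, so the sum mainly follows them. In 1 of the 5 tested, KCNJ8, all of cluster 2 lay above all of cluster 1, at 3.73 to 5.87 against 2.28 to 2.91 FPKM. In 2 the order was the reverse (1 and 0 on FPKM), against the same shares of all genes as above. PDGFRB and NOTCH3, also on the list, had no row.

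Jointly against E3, vascular endothelial genes were called lower in 16 of 19 and higher in 1, against 20.8% and 20.9% of all genes. Their sum was 690.5 to 807 CPM at E3, 174 to 202 CPM in cluster 1 and 107 to 179 CPM in cluster 2. In 10 of the 19 all of cluster 2 lay above all of cluster 1, and in 4 below it (11 and 4 on FPKM). Over all genes the shares were 22.8% and 23.2% (30.7% and 16.8% on FPKM). ERG and PLVAP had the most counts of the 19 in every corneal library, so the corneal sums mainly follow them. ERG, the 1 gene called higher, stood at 14.65 to 17.84 FPKM at E3, 54.8 to 75.4 FPKM in cluster 1 and 25.7 to 49.1 FPKM in cluster 2. Against E3, ERG thus moved opposite to the 16 genes called lower, but it was 1 of the 4 that lay lower in cluster 2 than in cluster 1. PLVAP stood at 78.3 to 97.8, 31.0 to 39.7 and 16.3 to 24.0 FPKM in the same order. Of the 19 genes, 8, 9 and 7 were under 0.1 FPKM in the libraries of cluster 1, and 0, 1 and 0 in cluster 2. CDH5, VE-cadherin, was at 35.6 to 41.5 FPKM at E3, at 0.05 to 0.27 FPKM in cluster 1 and at 2.02 to 3.83 FPKM in cluster 2. Of 6 erythroid genes with a row 4 were tested and 4 called lower, against 20.8% of all genes. In all of these every library of cluster 2 lay above every library of cluster 1. Over all genes that share was 22.8% (30.7% on FPKM). The erythroid sum was 2827 to 3308 CPM at E3, 1.45 to 7.61 CPM in cluster 1 and 31.8 to 192 CPM in cluster 2. The summed markers of corneal endothelium and keratocytes lay the other way, at 31290 to 37380 CPM in cluster 1 and 12540 to 15300 CPM in cluster 2. The part of these cells in the clusters' contractile gene levels was not tested.

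**Figure D5:**
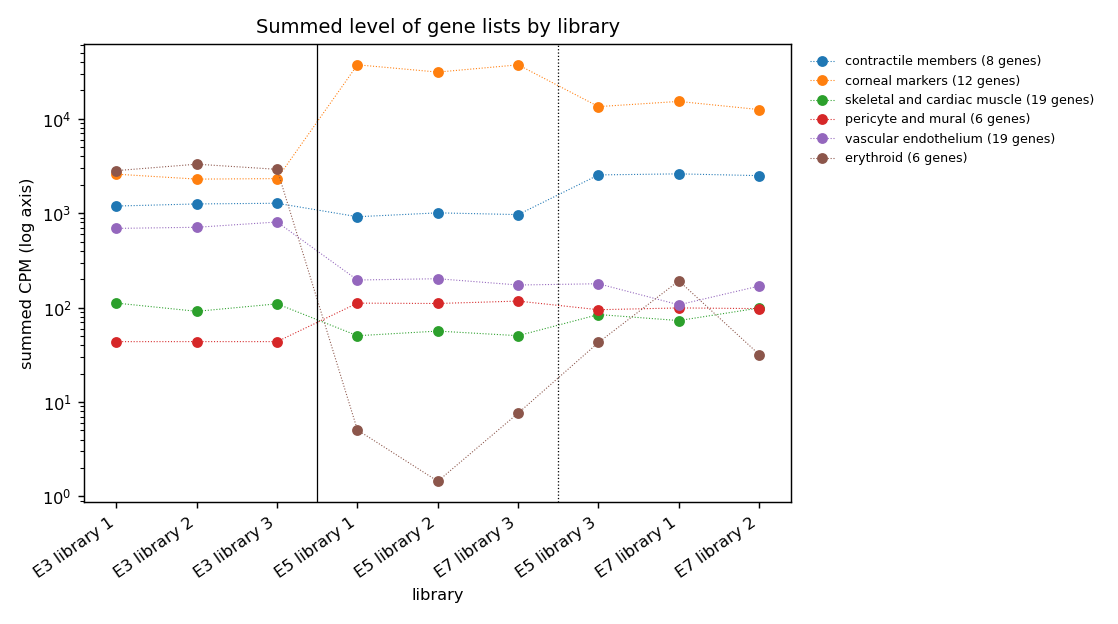
Summed CPM on a log axis of 6 gene lists in each library, with E3 left of the solid line and E5 library 3 and E7 libraries 1 and 2 right of the dotted line. Dotted joins only mark the points of one list. The 8 contractile genes stand at 2502 to 2612 CPM right of the dotted line and at 918 to 1009 CPM between the lines, and the corneal markers are higher between the lines.

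The genes whose levels most resembled the 2 leading members were found among 5639 genes with a mean of at least 10 FPKM. The measure was the Pearson correlation of log2(CPM + 1) over the 9 libraries, with CPM scaled by TMM factors. Those closest to ACTA2 were CYP26B1, an enzyme that breaks down retinoic acid (r = 0.996), SOSTDC1, a secreted antagonist of BMP and WNT signals (0.993), LOC423752 (0.992), the receptor ROR1 (0.989) and PHGDH, an enzyme of serine synthesis (0.988). CYP26B1 stood at 1.83 to 2.10 FPKM at E3, at 3.57 to 7.20 FPKM in cluster 1 and 28.2 to 36.2 FPKM in cluster 2. Those closest to TAGLN were THBD, thrombomodulin (r = 0.999), the WNT receptor FZD10 (0.995), the homeobox gene SHOX (0.995), the ETS factor ETV4 (0.993) and the phosphatase PTPRU (0.993). THBD stood at 9.60 to 12.7 FPKM at E3, at 57.7 to 63.4 FPKM in cluster 1 and 143 to 168 FPKM in cluster 2. The 9 points fall into the E3 libraries and the 2 corneal clusters, share library depth, and are a description with no p. Between the members themselves r was 0.986 for TAGLN and ACTN1, 0.921 for ACTA2 and MYL9, and 0.903 for MYL9 and TPM1, against 0.036 for TAGLN and CALD1.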

How the data were processed

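RNA-seq libraries, 9 in all, were grouped by their titles. The deposited tables hold, for every entry, the authors' expected count, which may be fractional, and their FPKM, per the file headers. The submitters' processing notes name Bowtie2, HISAT and galGal5; program versions, the counter and strandedness were not stated in what was used here. An entry absent from a library was set to 0. Symbols were looked up in a RefSeq table built on GRCg7b, a different build, so coordinates are left out; accession versions were ignored. Accession entries with no symbol numbered 22897, held 21.4 to 23.5% of each library's counts and entered only the library sizes, so the sum of a gene may lack some transcripts. Near-identical genes such as actins can share reads.

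Counts were added up per gene, rounded, and fitted in edgeR 4.0.16 under R 4.3.3 over the 9 libraries with no covariate, using TMM factors, filterByExpr and the quasi-likelihood F-test. Adjustment was Benjamini-Hochberg over 11748 genes, at a threshold of 0.05. An SE is the absolute log2 fold change divided by the square root of F. The joint corneal comparison weights E5 and E7 equally. As alternatives, scaling used RLE factors or library size only, tests used DESeq2 1.42.0 or limma 3.58.1 on log2(FPKM + 1), and further fits had no filter, 1 entry per gene, a replicate block, or fewer libraries. In simulated data 75 of 100 changes of 2-fold were recovered for E5 against E3 and 66 for E7 against E5. Only genes above the median level were changed, and noise was drawn independently for each gene. Recovery among lower genes, or under the split into corneal clusters, is therefore not covered. The members and the 9 other lists were chosen with earlier results of these data known. All members with a row are named. Of the other lists, called genes of at least 5 FPKM in their higher group could be named, at most 4 a direction, and marker lists are given by counts, sums and a few values.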

Additional observations from a re-analysis of the deposited data

How the results depend on the processing

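Of 136 recomputed log2 fold changes of the 8 genes per comparison, 122 kept direction and side of the threshold for E5 against E3, 112 for E7 against E3, 112 jointly and 119 for E7 against E5. Newly passing were 5, 4, 3 and 6, no longer passing 14 at E7 and 13 jointly, and 9, 6, 8 and 11 changed sign, none of them past the threshold. The cause was not tested. For E5 against E3, limma called 3200 genes lower, and leaving out 1 library gave 1424 to 2495 genes higher and 1334 to 2306 lower, against 2172 and 2077. For E7 against E3 such fits gave 1329 to 2336 higher and 1250 to 2154 lower (2031 and 1930), with 2 to 5 of the 8 genes higher, and jointly 1635 to 2669 higher (2457), with 2 to 4 of the 8. The lowest counts of genes came without E3 library 2 or 3. For E7 against E5 they gave 0 to 1 genes lower, and DESeq2 5 higher and 6 lower. Without E5 library 3 and E7 library 3, E7 against E5 had 1350 genes higher and 1371 lower and 6 of the 8 higher, and 1 of the 8, CALD1, was lower at E5 and jointly. That removal was chosen with the values known.

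Sign changes for E5 against E3 were MYH11 at 0 with 1 entry per gene and 0.06 without those 2 libraries, and TPM1 at -0.07 in limma and -0.21 without them. For E7 against E3, MYH11 was -0.05 by library size alone and -0.05 in limma, and CALD1 -0.08 in limma. Jointly, MYH11 was -0.12 by library size alone and -0.08 in limma, and for E7 against E5 ACTN1 was -0.02 with 1 entry per gene. Leaving out 1 library in turn gave, for E5 against E3, MYH11 -0.33 to 0.21 and TPM1 -0.21 to 0.44. For E7 against E3 it gave MYH11 -0.3 to 0.3 and CALD1 -0.13 to 0.99, and jointly MYH11 -0.15 to 0.15 and CALD1 -0.75 to 0.11. For E7 against E5 it gave TAGLN -0.04 to 1.08, MYH11 -0.3 to 0.41, MYL9 -0.01 to 0.44, TPM1 -0.03 to 0.62 and ACTN1 -0.06 to 0.39.

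Scaling by library size alone moved the median log2 fold change of all genes to -0.14, -0.1 and -0.13 (E5, E7, joint), and limma to -0.11, -0.09 and -0.1. The share of calls that were higher was then 35.9, 38.7 and 36.5%, and 32.3, 34.6 and 33.9% in limma, against 51.1, 51.3 and 50.2%. Deviations of same-numbered libraries from their group means correlated at -0.771 to 0.085. The place of E5 library 3 and E7 library 3 enters these values, so they cannot tell if the replicate numbers pair the samples. The replicate block ended the calls of ACTA2 at E7 and jointly (adjusted p = 0.0849 and 0.0807) and those of ACTG2 (0.0693 and 0.0633). The block ended no other call of the 8, and of the other named genes it ended those of PDLIM7 (0.0564) and RHOC (0.0539). ACTG2 rests on at most 28 counts a library, where 3 counts equal 0.129 to 0.304 CPM.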
